A study of Mus musculus with 6 samples.

Results

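Among 16225 cells kept from 6 single-cell RNA libraries of mouse embryoid bodies, 296 (1.82%) were Olig2-negative Pax6 neural progenitors. They were chosen on their unique molecular identifiers (UMIs, 1 for each captured RNA molecule). A cell counted as a member with at least 1 UMI of Sox2, at least 1 of Pax6, at most 2 of Tubb3, and 0 UMIs of each of Olig2, Nkx2-2, Foxa2, Neurod4, Mnx1 and Isl1. Kept cells had at least 1000 detected genes and at most 10% mitochondrially encoded UMIs. The rule used the 9 gene counts themselves, so the levels of those genes are a description of the gate and are not tested.

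The libraries came from HB9::GFP mouse embryonic stem cells, which carry green fluorescent protein under the promoter of a motor neuron gene, differentiated toward motor neurons and sampled as embryoid bodies at day 6. The KO libraries carried lncMN2-/-, a loss-of-function edit of the long noncoding RNA locus lncMN2 made with CRISPR/Cas9. The DeltaSP libraries carried lncMN2_SP-/-, another CRISPR/Cas9 edit of the same locus, and the WT libraries were wild type at it. Each genotype had 2 libraries, each from 1 clone, so every comparison between genotypes is between 2 clones and 2 clones. Clone and genotype effects cannot be told apart beyond that spread.

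In the ventral neural tube, Sox2 keeps dividing neuroepithelial cells in the progenitor state, and Pax6 is a homeodomain factor of the intermediate ventral domains. Graded hedgehog signalling divides these progenitors into domains from dorsal to ventral. Dbx1 and Dbx2 mark the most dorsal of the ventral domains, Irx3 spans the interneuron domains above the motor neuron progenitors, Nkx6-1 starts further ventrally, Nkx6-2 extends dorsal to it, Olig2 marks motor neuron progenitors and Nkx2-2 the domain below them. Droplet methods capture a part of each cell's RNA, so a count of 0 does not show that a transcript was missing.

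The 6 libraries held 24215 barcodes with between 24191242 and 49061693 UMIs each. WT replicate 1 was the shallow library: its kept cells had a median of 4157 UMIs, against 11898.5 to 15112 in the other 5. Its members had a median of 4863 UMIs, against 12100 to 15105 elsewhere. The members numbered 49 and 38 in KO replicates 1 and 2, 25 and 86 in DeltaSP replicates 1 and 2, and 88 and 10 in WT replicates 1 and 2. WT replicate 2 thus rested on 10 cells, in which a single UMI is worth 6.97 CPM (the UMIs of a gene for every 1000000 UMIs summed over the members of a library). Of 24138 distinct barcodes, 69 occurred in more than 1 library, and 4 member barcodes were among them. The targeted transcript 5330434G04Rik (chromosome X, 105348282 to 105391776, minus strand, mm10) had 0 and 0 UMIs in KO members, 1 and 17 in DeltaSP members and 4 and 0 in WT members, too few to test.

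Most members stood near the edge of the rule. They held 1009 UMIs of Sox2 and 535 of Pax6 in all. In KO members, Sox2 was at exactly 1 UMI in 18 and 6 cells and Pax6 in 23 and 16. The same counts were 6 and 27 for Sox2 and 15 and 46 for Pax6 in DeltaSP members, and 50 and 5 for Sox2 and 58 and 5 for Pax6 in WT members. Just outside the rule, 24 and 21 KO cells, 8 and 31 DeltaSP cells and 27 and 9 WT cells met every other term but held exactly 1 UMI of Olig2. Cells that failed only on Sox2, with 0 UMIs, numbered 27 and 11 in KO, 15 and 70 in DeltaSP and 104 and 17 in WT. In all, 99 members held at least 2 UMIs of both Sox2 and Pax6.

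The label was checked against 7 neural progenitor genes that the rule did not use: Sox1, Sox3, Nes, Fabp7, Vim, Msi1 and Rfx4. Vim, an intermediate filament of radial glia, was detected in 292 of 296 members. Sox3, a Sox2 relative of the neuroepithelium, was detected in 220, Nes, the progenitor filament nestin, in 205 and Fabp7, a lipid carrier of radial glia, in 196. Hes5, an effector of Notch signalling that is not among the 7, was detected in 188. Several of these genes were also common in the 3743 neurons gated on Tubb3 with Isl1 or Mnx1 and without Sox2: Vim was detected in 93.5% of them, Fabp7 in 41.8%, Nes in 38.6%, Sox3 in 24.0% and Hes5 in 11.1%. After each cell was thinned to 3000 UMIs, Vim remained in 91.5% of members and 85.4% of neurons, so it hardly separated the gates, and Sox3 in 47.9% and 8.16%. Sox1, a factor restricted to neural cells, was detected in 95 members (32.1%), against 4.78% of the neurons. Rfx4, a factor of neural progenitors, was detected in 38.5% of members, against 4.76% of those neurons. At 3000 UMIs, Sox1 remained in 10.2% of members and 1.82% of neurons, and Rfx4 in 16.9% and 1.31%. Msi1 separated the gates less. It was detected in 44.3% of members and 35.5% of neurons, and at 3000 UMIs in 18.7% and 12.5%.

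Genes of other parts of the nervous system were nearly silent. Pax3 and Pax7, markers of dorsal progenitors, had 1 UMI each. Olig3, of the most dorsal domains, had 0 of 296 cells, which allows a share of up to 1.01% of cells with a UMI. Otx2, of forebrain and midbrain, was also at 0. Hoxb2, a Hox gene of hindbrain and spinal cord, was detected in 282 members (95.3%). Map2, a neuronal microtubule protein, was detected in 7.77% of members, against 74.1% of the neurons. Dcx, another neuronal gene, was detected in 4.73% of members and 71.4% of neurons. The neuronal genes Stmn2 and Elavl3 were less rare. Each was detected in 30.7% of members, against 93.7% (Stmn2) and 90.0% (Elavl3) of the neurons. By these genes the label of neural progenitors held for most of the cells, although a part of them also carried UMIs of Stmn2 or Elavl3.

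A minority also carried UMIs of mesoderm or mesenchyme genes. A list of 15 mesoderm or mesenchyme genes, among them Twist1, Prrx1 and Col1a1, was summed in each cell. At least 3 such UMIs were found in 29 of 296 members (9.80%), against 8 of 698 (1.15%) cells of the Olig2-positive gate, which meets the same rule except for 1 or more Olig2 UMIs. The 29 cells numbered 9 and 3 in KO, 3 and 12 in DeltaSP and 0 and 2 in WT. They had a median of 17027 UMIs, against 8786 in the other 267 members. H19, an imprinted RNA abundant in mesoderm, was detected in 28 of the 29, with a median of 44 UMIs, and in 44 of the other 267, with a median of 0. At least 3 of the 7 neural genes were detected in 17 of the 29 (58.6%) and in 230 of the other 267 (86.1%).

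In the libraries, the list's summed level was 249.7 and 120.0 CPM in KO members, 84.9 and 168 CPM in DeltaSP members and 2.32 and 244 CPM in WT members. It was 10.99 to 18.4 CPM in the Olig2-positive cells of the KO and DeltaSP libraries, and 4.31 and 13.8 CPM in those of WT. Tbx1 and Pax1 were at 0 in all members. No doublets were called, and whether these 29 were single cells, or cells with free RNA of others, was not tested. Among 292 kept cells rich in the list (10 or more UMIs), 131 had a Sox2 UMI, 67 a Pax6 UMI and 38 both. The genotype comparisons were repeated without the 29 cells.

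**Figure D1:**
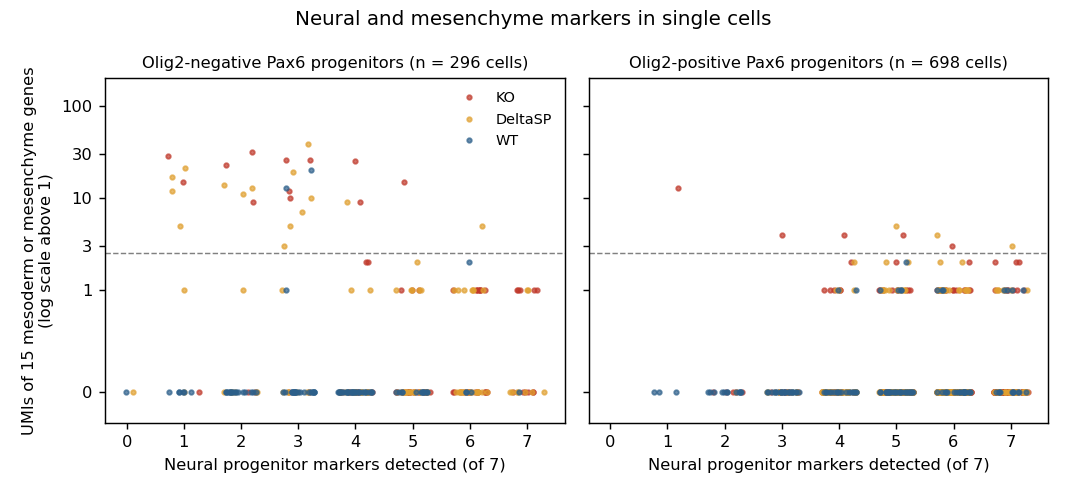
Each point is 1 cell: the number of 7 neural progenitor genes detected (horizontal, spread sideways for visibility) against its UMIs of 15 mesoderm or mesenchyme genes (vertical, log scale above 1), in the 296 Olig2-negative cells (left) and 698 Olig2-positive cells (right). The dashed line separates cells with 3 or more such UMIs, 29 on the left and 8 on the right; the 29 are mostly in KO and DeltaSP libraries.

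The members differed from one another in their domain genes. Nkx6-1 was detected in 134 of 296 members and Irx3 in 108. Both were found in 56, Irx3 without Nkx6-1 in 52, Nkx6-1 without Irx3 in 78, and neither in 110. Olig1, the neighbour of Olig2 on chromosome 16 and a marker of the same progenitors, was detected in 49. Of these, 40 lacked Irx3, Dbx1 and Dbx2. None of Irx3, Dbx1, Dbx2, Nkx6-1 and Olig1 was detected in 81 members, 44 of them in the shallow WT replicate 1.

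Dbx1 or Dbx2 was detected in 26 members. Dbx1 (chromosome 7, 49631499 to 49636849, minus strand, mm10) was found in 15 cells with 78 UMIs, and Dbx2 (chromosome 15, 95623563 to 95655960, minus strand) in 23 cells with 54 UMIs; 12 cells had both. In the Olig2-positive gate, Dbx1 was found in 6 and Dbx2 in 7 of 698 cells, although those cells were deeper. Dbx1 had a UMI in 3 of 3743 neurons (0.0801%). Of the 26 members, 19 also had Irx3, 12 had Nkx6-2, 2 had Nkx6-1 and 1 had Olig1. None of the Dbx1 or Dbx2 UMIs was in the 29 cells with mesenchyme genes.

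Beyond the domain genes, the RNAs that varied most from cell to cell were scored by their variance over the mean in each library. Each member was first thinned to 3000 UMIs, and the 12 members with fewer were left out. Malat1, a nuclear long noncoding RNA, came first, with a median ratio of 18.1 over the 6 libraries. Gadd45g, a stress gene also known from differentiating progenitors, followed at 10.4. Gadd45g was detected in 121 members with 673 UMIs, and in DeltaSP replicate 2 a single cell held 57 of them. Jun, an immediate early transcription factor, was at 6.72 and Id3, a BMP target that holds progenitors undifferentiated, at 5.32.

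Set against the Olig2-positive progenitors of the same libraries, the members had more Irx3 in 6 of 6 libraries. Irx3 (chromosome 8, 91798525 to 91802067, minus strand, mm10) was at 84.1 and 106 CPM in KO members against 31.1 and 44.8 CPM in KO Olig2-positive cells. It was at 67.9 and 60.2 CPM in DeltaSP members against 28.4 and 21.7 CPM, and at 37.1 and 6.97 CPM in WT members against 19.4 and 5.32 CPM. The gap was wide in KO and DeltaSP and narrow in WT replicate 2. Thinned to 3000 UMIs, 15.5% of members had an Irx3 UMI, against 7.08% of Olig2-positive cells. Neurons were not a background for this gene, since 18.0% of them had it at the same depth.

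Irx5, which lies beside Irx3 and shares much of its pattern, was also higher in members in 6 of 6 libraries. It was at 77.5 and 108 CPM in KO, 79.2 and 41.7 CPM in DeltaSP and 78.9 and 55.7 CPM in WT members. The Olig2-positive cells had 46.8 and 47.9 CPM in KO, 31.7 and 33.6 CPM in DeltaSP and 41.0 and 52.1 CPM in WT. Of 12 measured BMP and Id genes, 1 was higher in 6 of 6 libraries and 1 was lower in 6 of 6. Over all 9053 genes measured in both gates, 251 were higher and 368 lower in this way. A single gene each way does not set a list of 12 apart from that. The higher gene was Id4, which restrains basic helix-loop-helix factors, and the lower gene was Id1. Without the 29 cells, Irx3, Irx5 and Id4 were still higher in 6 of 6 libraries, with mean log2 ratios of 1.30, 0.96 and 1.17.

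Olig1 and Neurog2 were lower in members in all 6 libraries. Olig1 was at 6.57 and 31.5 CPM in KO, 39.6 and 31.5 CPM in DeltaSP and 30.2 and 90.6 CPM in WT members. Its values in Olig2-positive cells were 144 and 152 CPM in KO, 150.4 and 114 CPM in DeltaSP and 90.5 and 129.7 CPM in WT. The gates did not overlap apart from WT replicate 2, whose members reached the level of the lowest Olig2-positive library. Neurog2, the proneural factor that drives motor neuron progenitors toward neurons, was at 54.7 to 121 CPM in members and 159 to 289 CPM in Olig2-positive cells, and the ranges did not overlap. Sox9, a progenitor and gliogenic factor, was lower in members in 6 of 6 libraries too. Nkx6-1 did not separate the gates: it was at 73.2 to 125 CPM in members and 77.6 to 119 CPM in Olig2-positive cells.

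Across 9053 genes measured in both gates, 251 were higher and 368 lower in members in 6 of 6 libraries. These differences were not tested, since the rule divides the gates by the expression of correlated genes. The 10 largest ratios on the higher side belonged to Tgfbi, H19, Col26a1, Anxa2, Nrp1, Cxcl12, Gas1, Arg1, Ptprk and Hhip. Tgfbi, a secreted matrix protein, had a mean log2 ratio of 4.11 and H19 of 2.97. Without the 29 cells, none of the 10 stayed higher in 6 of 6 libraries. Hhip and Ptprk were still higher in 5 of 6, with mean log2 ratios of 0.93 and 0.57, and the rest in 1 to 4. WT replicate 2 then had 8 members, in which Gas1, Nrp1, Anxa2 and Arg1, among others, were at 0. Cells with mesenchyme genes were left out of the members only, not of the Olig2-positive cells. The 29 cells held 15.9% of the members' UMIs but 98.7% of the Tgfbi, 93% of the H19 and 86.9% of the Cxcl12 UMIs.

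The 10 largest ratios on the lower side were less tied to those cells. They belonged to Olig1, Wnt7b, Sp8, Tmem35a, Wdr66, Pknox2, Il4ra, Tns1, Nkx2-9 and Nmnat2. Olig1 had a mean log2 ratio of -2.07, Wnt7b, a Wnt ligand, -2.05 and Nkx2-9, a hedgehog-dependent homeobox gene of the most ventral progenitors, -1.49. Without the 29 cells, 8 of the 10 were still lower in 6 of 6 libraries. Of 55 genes of G2 and M phase, 13 were lower in members in 6 of 6 libraries, and none was higher; Top2a, Mki67 and Cdk1, named here after their values were seen, were among them. Of 53 S phase genes, 1 was higher and 0 were lower.

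**Figure D2:**
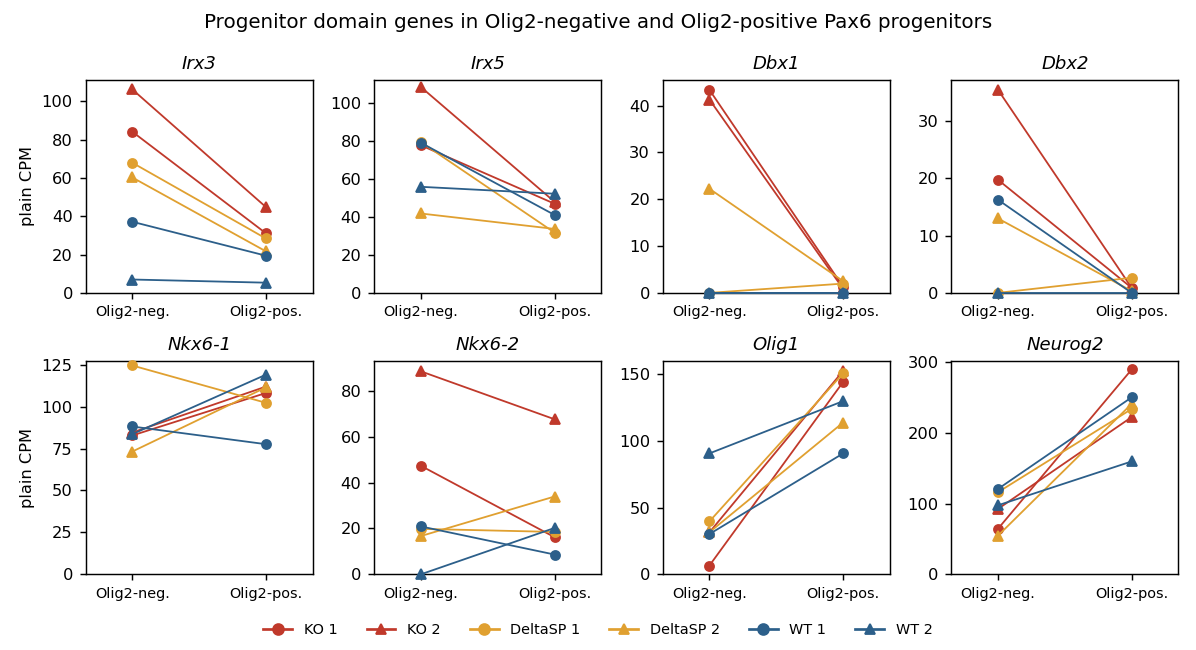
Level of 8 domain and proneural genes (vertical, plain CPM, from 0) in the Olig2-negative (left) and Olig2-positive (right) progenitors of each library, joined by a line; red KO, yellow DeltaSP, blue WT. Irx3 and Irx5 lie higher and Olig1 and Neurog2 lower in Olig2-negative cells in all 6 libraries, and Dbx1 is at 0 in both WT libraries.

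At full depth the share of members under the rule did not separate the genotypes, while some alternative gates, given below, did in part. Under the rule, members were 2.30% and 1.81% of kept cells in KO, 1.10% and 2.39% in DeltaSP and 1.96% and 0.620% in WT. The means were 2.06% ± 0.348 in KO, 1.74% ± 0.914 in DeltaSP and 1.29% ± 0.944 in WT (SD, n = 2 each), and all 3 ranges overlapped. KO exceeded WT by 0.767 percentage points (two-sided exact permutation test, p = 0.667), and DeltaSP exceeded WT by 0.453 points (exact p = 0.667). KO exceeded DeltaSP by 0.314 points (exact p = 1.0). With 2 libraries a group, the smallest p this test can give is 0.333, so it cannot reach 0.05. The 95% Wilson intervals, which cover counting error only, ran from 1.75% to 3.03% in KO replicate 1 and from 0.337% to 1.14% in WT replicate 2.

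The share depended on depth. Of 131 Olig2-positive cells that still had Sox2 and Pax6 when thinned to 3000 UMIs, 31 no longer had an Olig2 UMI. At that depth 178 cells met the whole rule. Of these, 96 were members at full depth, 31 (17.4%) were Olig2-positive at full depth and 51 failed it in another way. The share was then 1.25% and 1.25% in KO, 0.826% and 0.970% in DeltaSP and 1.68% and 1.06% in WT. The mean difference was then -0.119 points for KO minus WT, with overlapping libraries, and -0.473 points for DeltaSP minus WT, without overlap (exact p = 1.0 and 0.333). Both signs were the opposite of those at full depth.

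Among all Pax6 progenitors, members plus Olig2-positive cells, the Olig2-negative fraction was 26.1% and 21.1% in KO, 21.9% and 29.7% in DeltaSP and 54.3% and 16.7% in WT. WT replicate 1 stood far above the rest and WT replicate 2 below them. At 3000 UMIs the fraction was 48.1% and 41.7% in KO, 54.5% and 47.8% in DeltaSP and 66.7% and 72.7% in WT. Both KO libraries and both DeltaSP libraries then lay below both WT libraries. The mean difference was -24.8 points for KO minus WT and -18.5 points for DeltaSP minus WT (exact p = 0.333 each, the smallest possible). The Olig2-positive share of kept cells was 6.53% and 6.76% in KO, 3.90% and 5.66% in DeltaSP and 1.64% and 3.10% in WT at full depth.

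**Figure D3:**
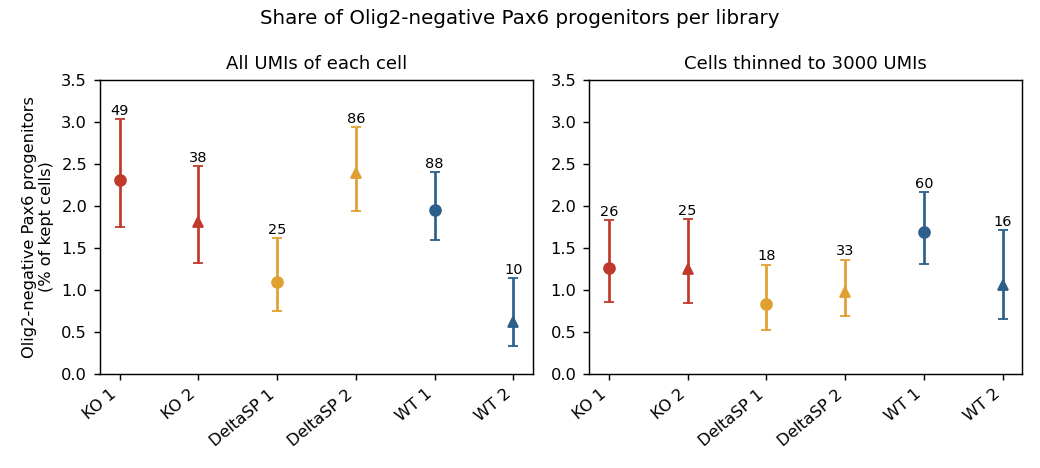
Share of Olig2-negative Pax6 progenitors among kept cells (vertical, percent) in each library, at full depth (left) and after thinning every cell to 3000 UMIs (right); bars are 95% Wilson intervals and the numbers are member cells. At full depth the genotypes overlap, and after thinning WT replicate 1 is the highest library at 1.68%.

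Gene levels in the members were compared between genotypes on UMIs summed over the members of each library, with edgeR's quasi-likelihood test and Benjamini-Hochberg adjustment over 6969 genes at 0.05. In bulk sums of this kind, fewer cells with an RNA and less RNA per cell cannot be told apart. In KO against WT, 260 genes passed (3.73% of those tested), 37 higher (0.531%) and 223 lower (3.2%). The libraries of KO and WT did not overlap for 44.9% of all tested genes. The count rested heavily on single libraries: it was 68 without WT replicate 1, 400 without WT replicate 2, 138 without KO replicate 1 and 107 without KO replicate 2. It was 151 without the 29 cells with mesenchyme genes and 64 with at least 2 UMIs of Sox2 and of Pax6. Of 51 named genes that passed, 13 passed whichever library was left out. Without the 29 cells 34 of the 51 passed, and the calls of Dbx1, Tsen15, Rnft1, Wdr66, Sox9, Ntn1, Stmn3, Ung, Tk1, Cks2, Atf4, Slc3a2, Atf5, Mif, Cox7b, Hoxb6 and mt-Nd4l were lost.

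Dbx1 rose in KO members. It was at 43.4 and 41.3 CPM in KO, 0 and 22.2 CPM in DeltaSP and 0 and 0 CPM in WT. Both KO libraries were above both WT libraries, while the DeltaSP libraries lay on both sides. With WT at 0, the KO level was 8.11-fold above a floor set at 3 UMIs over the WT group (edgeR adjusted p = 0.0309). That value is not a lower bound on the fold, because the UMIs lay in few cells. In KO replicate 1 a single cell held 15 of the 33 Dbx1 UMIs. The Dbx1 UMIs came from 4 and 5 KO cells, 0 and 6 DeltaSP cells and 0 and 0 WT cells. The call was lost without WT replicate 1 (adjusted p = 0.316), without KO replicate 1 (0.0676), without the 29 cells with mesenchyme genes (0.05002), and with at least 2 UMIs of Sox2 and of Pax6 (0.235). DESeq2 gave Dbx1 no adjusted p. No Dbx1 UMI was in the 29 cells.

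Irx3, Nkx6-2 and Sox1 were higher in both KO libraries than in both WT libraries but did not pass. Irx3 had a log2 fold change of 1.45 ± 0.42 (SE) with an edgeR adjusted p of 0.0658. Thinned to 3000 UMIs, Irx3 was detected in 25.0% and 27.0% of KO members, 12% and 14.5% of DeltaSP members and 8.64% and 0% of WT members. The 0% in WT replicate 2 was 0 of 10 cells. Nkx6-2 was at 47.3 and 88.5 CPM in KO, 19.8 and 16.7 CPM in DeltaSP and 20.9 and 0 CPM in WT, with a log2 fold change of 1.84 in KO against WT and an adjusted p of 0.0977. Sox1 was at 67.0 and 88.5 CPM in KO, 48.1 and 45.4 CPM in DeltaSP and 27.8 and 6.97 CPM in WT (log2 fold change 1.53, adjusted p = 0.0687). Olig1 had a log2 fold change of -1.75 and an adjusted p of 0.148.

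Of 9 tested genes of the p0 to p2 domains, the interneuron progenitor domains above the motor neuron progenitors, 1 rose (Dbx1) and 0 fell in KO against WT. Their median log2 fold change was 0.09, beside 0.03 over all tested genes. Nkx6-1 had a log2 fold change of -0.31 and did not pass. Of 24 tested neural progenitor genes, 0 rose and 1 fell, with a median of -0.15. The gene that fell was Sox9, at 23.7 and 49.2 CPM in KO, 45.3 and 42.6 CPM in DeltaSP and 116 and 41.8 CPM in WT. Its KO level in replicate 2 was above WT replicate 2 in plain CPM, and its log2 fold change of -1.65 became -0.45 without WT replicate 1. None of 15 Notch genes, 9 hedgehog genes or 10 proneural genes passed. Dll1, a Notch ligand of committing progenitors, had a log2 fold change of 1.59 (adjusted p = 0.129) and Neurog2 of -0.81.

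Id1 and Id2 rose in KO members. Id1, a BMP target that blocks proneural factors, was at 252 and 350.0 CPM in KO, 243 and 214 CPM in DeltaSP and 95.1 and 48.8 CPM in WT (log2 fold change 1.65 ± 0.32, edgeR adjusted p = 0.00691). All KO and DeltaSP libraries were above both WT libraries. Id2 was at 109 and 146 CPM in KO, 105 and 139 CPM in DeltaSP and 37.1 and 27.9 CPM in WT (log2 fold change 1.60, adjusted p = 0.0223), again without overlap between KO and WT. Of 7 tested BMP and Id genes, 2 rose and 0 fell, with a median of 0.76. Id1 was not called without KO replicate 2, and Id2 was not called without KO replicate 2 or without WT replicate 1. In Olig2-positive cells Id1 was at 344 and 389 CPM in KO, 321 and 338 CPM in DeltaSP and 179 and 248 CPM in WT, so its order across genotypes was shared by both gates.

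Secreted and imprinted genes were also among the rises. Sfrp1, a secreted Wnt antagonist, was at 216 and 364 CPM in KO, 224 and 206 CPM in DeltaSP and 104 and 90.6 CPM in WT (log2 fold change 1.26, adjusted p = 0.03). Ntn1, the axon guidance cue netrin-1 made by ventral progenitors, was at 147 and 173 CPM in KO, 192 and 91.7 CPM in DeltaSP and 48.7 and 48.8 CPM in WT (log2 fold change 1.45, adjusted p = 0.038). Peg10, a paternally expressed gene derived from a retrotransposon, was at 339 and 228 CPM in KO, 178 and 179 CPM in DeltaSP and 74.2 and 55.7 CPM in WT (log2 fold change 1.81, adjusted p = 0.00415). KO exceeded WT without overlap in all 3 genes. The Sfrp1 call held in 1 of 6 fits with a library left out (without KO replicate 1), and that of Ntn1 was lost without either WT or either KO library. The Peg10 call was lost without WT replicate 1 or KO replicate 1. Only Sfrp1 passed among 10 Wnt genes and only Peg10 among 21 imprinted genes. Cdkn1c, an imprinted gene whose product halts the cell cycle, had a log2 fold change of -1.55 and an adjusted p of 0.188.

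Among the largest rises, Prps2, which makes the ribose phosphate of nucleotides, was at 40.7 and 49.2 CPM in KO, 19.8 and 24.1 CPM in DeltaSP and 4.64 and 0 CPM in WT (log2 fold change 3.35, adjusted p = 0.0173). Fancl, the ubiquitin ligase of the Fanconi anaemia repair pathway, was at 67.0 and 66.9 CPM in KO, 70.8 and 66.7 CPM in DeltaSP and 11.6 and 13.9 CPM in WT (log2 fold change 2.18, adjusted p = 0.0126). Tk1, the thymidine kinase of S phase, was at 199.8 and 210.4 CPM in KO, 125 and 157 CPM in DeltaSP and 74.2 and 83.6 CPM in WT (log2 fold change 1.15, adjusted p = 0.0396). WT was the lowest genotype for each. Of 52 tested S phase genes, Tk1 and Ung rose and 0 fell, with a median of 0.22; of 54 G2 and M phase genes, 0 rose and Cks2 fell, with a median of 0.03. These calls depended on several libraries: with 1 library left out, Tk1 and Cks2 passed in 1 of 6 fits and Ung in 2 of 6, and over all alternatives the log2 fold change of Ung went as low as 0.14. Prps2 was lost without WT replicate 1 or KO replicate 2, and Fancl without WT replicate 1. Galk2, Tsen15, Pcna-ps2, Rnft1 and Nme2 were the other genes of the largest rises; Pcna-ps2 is a processed copy of Pcna, and reads shared with Pcna make it uncertain.

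**Figure D4:**
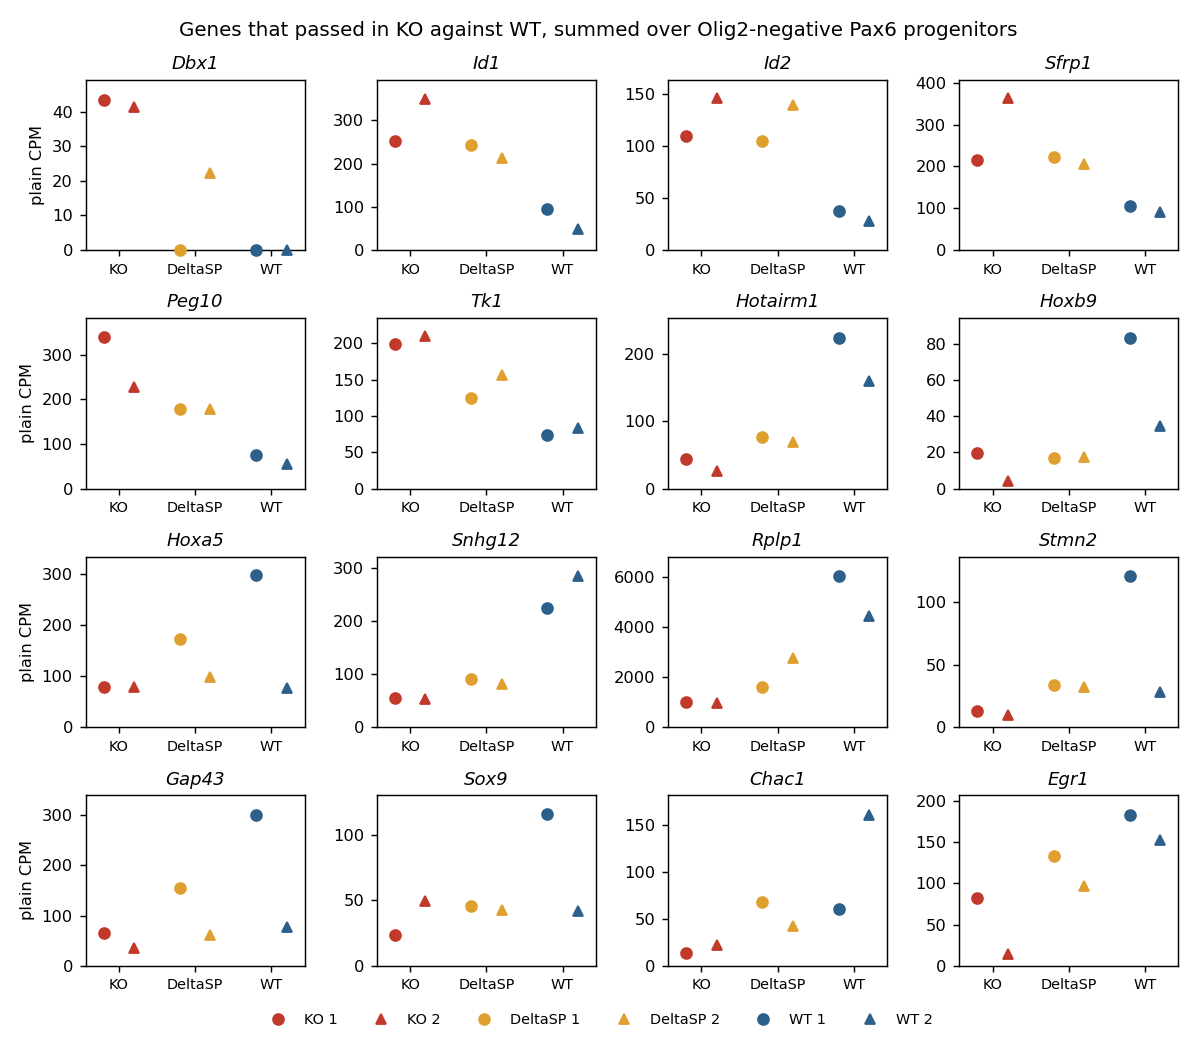
Level (vertical, plain CPM, from 0) of 16 genes that passed in KO against WT, in the members of each library; circles are replicate 1 and triangles replicate 2. WT is lowest for Dbx1, Id1, Id2, Sfrp1, Peg10 and Tk1, while Hotairm1, Snhg12 and Rplp1 are highest in WT; for Hoxa5, Stmn2, Gap43 and Sox9, WT replicate 1 stands far above WT replicate 2.

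Falls outnumbered rises. Of 9 tested genes among small nucleolar RNA hosts and neural long noncoding RNAs, 6 fell and 0 rose in KO, with a median log2 fold change of -1.96. Snhg12, a host of small nucleolar RNAs, was at 55.2 and 53.1 CPM in KO, 90.6 and 81.5 CPM in DeltaSP and 225 and 286 CPM in WT (log2 fold change -2.44 ± 0.28, edgeR adjusted p = 1.73e-04). Hotairm1, a long noncoding RNA of the Hoxa cluster (chromosome 6, 52156902 to 52162119, plus strand, mm10), was at 44.7 and 25.6 CPM in KO, 76.4 and 69.5 CPM in DeltaSP and 225 and 160.2 CPM in WT (log2 fold change -2.71 ± 0.33, adjusted p = 3.09e-04). Pantr1, a long noncoding RNA beside Pou3f3, was at 89.4 and 94.4 CPM in KO, 150.0 and 162 CPM in DeltaSP and 311 and 286 CPM in WT (log2 fold change -1.96, adjusted p = 6.05e-04).

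All 3 were lowest in KO, intermediate in DeltaSP and highest in WT without overlap, and all 3 passed whichever library was left out. In Olig2-positive cells Hotairm1 was at 40.3 and 27.2 CPM in KO, 62.7 and 45.5 CPM in DeltaSP and 166 and 203 CPM in WT, the same order as in the members. Epb41l4aos, an antisense RNA, and Snhg6, another host of small nucleolar RNAs, had log2 fold changes of -3.17 and -3.57 and passed.

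Among Hox genes, Hoxa5 fell and 0 rose of 11 tested in paralog groups 1 to 5, with a median of -0.35. Hoxb6 and Hoxb9 fell and 0 rose of 4 tested in groups 6 to 13, with a median of -0.99. Hoxb9, of thoracic and more caudal levels, was at 19.7 and 3.93 CPM in KO, 17.0 and 17.6 CPM in DeltaSP and 83.5 and 34.8 CPM in WT (log2 fold change -2.60 ± 0.55, adjusted p = 0.0124). KO and DeltaSP both lay below WT, but the Hoxb9 call was lost without WT replicate 1 (log2 fold change -1.58) or KO replicate 2. Hoxb6 was lost without the same libraries. Hoxa5, of cervical levels, was at 77.5 and 78.7 CPM in KO, 173 and 98.2 CPM in DeltaSP and 297 and 76.6 CPM in WT, where the replicates differed widely, and was not called without WT replicate 1 (log2 fold change -0.15), KO replicate 1 or KO replicate 2. The antisense RNA Hoxb5os fell with a log2 change of -3.74, and its call was lost without WT replicate 1 (-1.56). It overlaps the Hoxb cluster, and whether the counting used strand is not given in the sources used here beyond the pipeline's name.

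Neuronal genes present at low level in the members fell in KO. Of 14 tested pan-neuronal genes, 5 fell (Stmn2, Stmn3, Ina, Nefl and Gap43) and 0 rose, with a median of -1.003. Stmn2, a microtubule regulator of young neurons, was at 13.1 and 9.83 CPM in KO, 34.0 and 32.4 CPM in DeltaSP and 121 and 27.9 CPM in WT (log2 fold change -3.15, adjusted p = 0.00275). Gap43, a growth cone protein, was at 65.7 and 35.4 CPM in KO, 156 and 60.2 CPM in DeltaSP and 302 and 76.6 CPM in WT (log2 fold change -2.29, adjusted p = 0.0114). WT replicate 1 was the highest library for both, and without it 0 of 14 genes fell and 1 rose. Stmn2 had a UMI in 30.7% of members and in 93.7% of neurons, and the part of free neuronal RNA in these counts was not tested.

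Ribosomal protein genes made the largest group of falls: 42 of 80 tested fell and 0 rose, with a median of -1.19. Rplp1, of the ribosomal stalk, was at 1008 and 948 CPM in KO, 1616 and 2767 CPM in DeltaSP and 6034 and 4437 CPM in WT (log2 fold change -2.67, adjusted p = 3.33e-04). The summed level of the family was 146494 and 130490.0 CPM in KO members, 155802 and 207523 CPM in DeltaSP members and 230415 and 210975 CPM in WT members. It was nearly the same in Olig2-positive cells, at 146380.0 and 130658 CPM in KO, 161927 and 209724 CPM in DeltaSP and 233267 and 216390.0 CPM in WT. In neurons it was 85378 and 76194 CPM in KO, 93332 and 125836 CPM in DeltaSP and 139814 and 114256 CPM in WT. The members and the Olig2-positive cells ordered the 6 libraries alike, and in neurons WT replicate 2 and DeltaSP replicate 2 changed places. The number that fell was 7 without WT replicate 1, 14 without KO replicate 2 and 31 once a trend with transcript length was removed. Copies of these genes elsewhere in the genome make single members uncertain.

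Of the 13 mitochondrially encoded genes, mt-Nd3 and mt-Nd4l, subunits of complex I, fell and 0 rose, with a median of -0.18. The call for mt-Nd3 (log2 fold change -2.88) was lost once the length trend was removed, and that for mt-Nd4l changed sign.

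Other named genes that fell belonged to various lists. Hist1h2ae, a histone gene, was at 18.4 and 19.7 CPM in KO, 19.8 and 55.6 CPM in DeltaSP and 114 and 160.2 CPM in WT (log2 fold change -3.01, adjusted p = 8.21e-04), and it passed under every alternative run. Cox7b, a subunit of respiratory complex IV encoded near the edited locus, fell by 1.40 on the log2 scale, the 1 of 6 tested genes of that neighbourhood to pass. Its call was lost without WT replicate 1, KO replicate 1 or KO replicate 2, and with at least 2 UMIs of Sox2 and of Pax6. Epha5, an ephrin receptor, passed with overlapping libraries and turned to 0.84 without WT replicate 1. Mif, Cks2, Gng3, Wdr66 and AY036118 also fell, and none of them was called without WT replicate 1.

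Stress genes also fell in KO, and WT replicate 2 was the highest library for Chac1 and Jun. Of 12 tested genes of the integrated stress response, 5 fell and 0 rose, with a median of -0.97. Of 13 immediate early genes, 3 fell (Jun, Egr1 and Atf3) and 0 rose, with a median of -1.10. Chac1, a target of the stress factor Atf4, was at 13.1 and 21.6 CPM in KO, 67.9 and 42.6 CPM in DeltaSP and 60.3 and 160.2 CPM in WT (log2 fold change -2.72, adjusted p = 0.00413). Jun was at 254 and 359.9 CPM in KO, 263 and 469 CPM in DeltaSP and 459 and 1309.5 CPM in WT (log2 fold change -1.73, adjusted p = 0.0221). The summed immediate early level was 1629.7 and 1935 CPM in KO, 1859.5 and 1924 CPM in DeltaSP and 1935 and 5433 CPM in WT. WT replicate 2, with its 10 cells, stood apart from the other 5 libraries, and without it Jun did not pass, nor without KO replicate 1. The Egr1 call was lost without WT replicate 1 or KO replicate 2. Atf4, Atf5 and Slc3a2, which also fell, lost their calls without WT replicate 2 and without KO replicate 1, among others.

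DeltaSP differed from WT in few genes. In the same fit 5 genes passed (0.0717%), 2 higher (0.0287%) and 3 lower (0.043%). An unadjusted p under 0.05 was found for 696 (9.99%). Both rises were interferon-induced genes. Bst2, the antiviral membrane protein tetherin, was at 272 and 71.4 CPM in DeltaSP, 18.4 and 33.4 CPM in KO and 6.96 and 6.97 CPM in WT (log2 fold change 4.26 ± 0.77, edgeR adjusted p = 0.0497). Ifitm3, which restricts viral entry, was at 838 and 300.2 CPM in DeltaSP, 130.1 and 90.5 CPM in KO and 116 and 83.6 CPM in WT (log2 fold change 2.24 ± 0.41, adjusted p = 0.0497). Both DeltaSP libraries were above all 4 others for both genes, and replicate 1 was far above replicate 2.

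Of 29 interferon-induced genes, 9 passed the filter on low counts, and of these 2 rose and 0 fell in DeltaSP. Genes of the list with a UMI numbered 25 and 27 in DeltaSP members and 8 and 5 in WT members. A gene could thus enter the test through the DeltaSP libraries alone. For this reason the median log2 fold change of the 9 (4.26) is not comparable with the 0.00 over all tested genes. The list's summed level was 2389 and 893 CPM in DeltaSP members, 356 and 358 CPM in KO members and 302 and 209 CPM in WT members. The Olig2-positive cells had 1190.3 and 647 CPM in DeltaSP, 348 and 364 CPM in KO and 345 and 353 CPM in WT. Bst2 and Ifitm3 were not called without WT replicate 1, WT replicate 2 or DeltaSP replicate 1. The 3 genes that fell were Snhg12, Epb41l4aos and mt-Nd3, each of which fell in KO too; KO and DeltaSP were compared with the same WT libraries. Their log2 fold changes in DeltaSP were -1.67 for Snhg12, -1.86 for Epb41l4aos and -1.67 for mt-Nd3. Snhg12 and mt-Nd3 were not called without either DeltaSP library, and Epb41l4aos not without WT replicate 1 or DeltaSP replicate 1. None of the 5 genes was called without the 29 cells with mesenchyme genes. Hotairm1 just missed, at -1.60 with an adjusted p of 0.0514.

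KO differed from DeltaSP in 1 tested gene (0.0143%), and 407 (5.84%) had an unadjusted p under 0.05. Ifitm3 was lower in KO, by a log2 fold change of -2.40 ± 0.37 (edgeR adjusted p = 0.0359), and was not called without DeltaSP replicate 1. The next 4 genes by p did not pass: Etfb at -1.77 (adjusted p = 0.0621), Bst2 at -2.72 (0.077), Gm10260 at -1.49 (0.167) and Dlk1 at 3.43 (0.228). Nkx6-2 had a log2 fold change of 1.75 between KO and DeltaSP and Irx3 of 0.45, and neither passed.

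Whether the genotype effect differed between Olig2-negative and Olig2-positive progenitors was tested as an interaction, with the library as a block, over 9053 genes. For KO against WT, 11 genes passed (0.122%), 1 higher (0.011%) and 10 lower (0.11%), and 569 (6.29%) had an unadjusted p under 0.05. Id1 and Hotairm1 were not among the 11. Dbx1 was not either, but it had 0 UMIs in both gates of both WT libraries, so the test could not decide for it. The 10 on the lower side were Egr1, Rassf1, Chac1, Ier2, Trmt10c, Jun, Atf3, Slc3a2, Fos and Jund; 6 of these are on the list of immediate early genes and 2 on that of the integrated stress response. Egr1, an immediate early zinc finger factor, was at 77.9 and 12.3 CPM in KO, 125 and 101.4 CPM in DeltaSP and 205 and 159 CPM in WT members, scaled by edgeR's normalization factors. In Olig2-positive cells it was at 190.0 and 70.5 CPM in KO, 119.8 and 116 CPM in DeltaSP and 129.9 and 79.2 CPM in WT.

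KO members were thus below, and WT members above, the Olig2-positive cells of their own libraries. The interaction for Egr1 was -2.31 ± 0.33 on the log2 scale (edgeR adjusted p = 1.58e-05), and it was the one gene of the 11 that passed whichever library was left out. It did not pass with at least 2 UMIs of Sox2 and of Pax6 (-0.16) or with the gate set after thinning to 3000 UMIs (-0.88). For Jun the scaled level in members was 239 and 321 CPM in KO, 247 and 489 CPM in DeltaSP and 514 and 1358 CPM in WT, with the high value in WT replicate 2. The calls other than that of Egr1 were lost without WT replicate 2, and likewise without KO replicate 1 or without DeltaSP replicate 2. For DeltaSP against WT, 1 gene passed (0.011%), Mt1, a metal-binding metallothionein, with an interaction of 1.31 (adjusted p = 0.00865); 523 (5.78%) had an unadjusted p under 0.05. Mt1 was at 149 and 537 CPM in DeltaSP members against 143 and 362 CPM in their Olig2-positive cells, and at 296 and 116 CPM in WT members against 495 and 291 CPM.

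**Figure D5:**
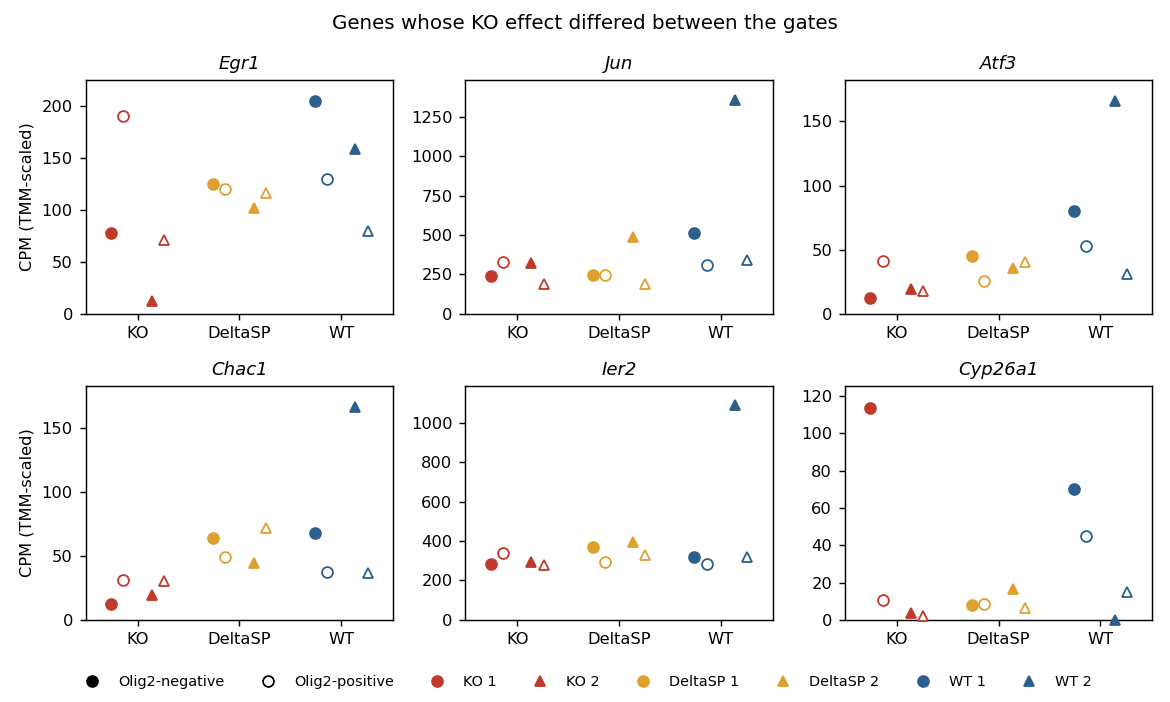
Level (vertical, CPM scaled by edgeR's factors, from 0) of 6 genes whose KO effect differed between the gates; filled symbols are Olig2-negative members and open symbols Olig2-positive cells of the same library, circles replicate 1 and triangles replicate 2. For Jun, Atf3, Chac1 and Ier2 the filled WT triangle, which rests on 10 cells, stands above all other points, and for Egr1 each filled KO symbol lies below the open symbol of its own library.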

How the data were processed

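Single-cell RNA was measured with 10x Genomics 3' chemistry in 6 libraries, 2 clones for each of KO, DeltaSP and WT. The deposited files hold UMI counts per gene and barcode, not normalized; per the series' design text and the submitters' processing notes, the authors made these counts with Cell Ranger 4.0 on mm10 with Ensembl release 93. The files listed barcodes with at least 500 UMIs. How doublets or free RNA were treated by the authors is not given in the sources used here, and no doublet caller was run.

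The members and gene lists were chosen with earlier results of these data known. Cells are not replicates, so UMI counts were summed over the members of each library and tested in edgeR 4.0.16 (R 4.3.3): TMM scaling, filterByExpr, quasi-likelihood F test, all 6 libraries in 1 fit with 3 residual degrees of freedom, and Benjamini-Hochberg adjustment at 0.05 over 6969 genes. P-values therefore measure the spread between libraries, each from 1 clone. That spread mixes clone differences with depth and with the sampling of 10 to 88 members a library, which cannot be told apart here. Plain CPM are UMIs for every 1000000 UMIs of the summed cells, and scaled CPM also use the TMM factors. Log2 ratios between gates use CPM plus 1. Interactions of genotype with gate were fitted on 12 sums with library as a block. Shares were compared by two-sided exact permutation tests (scipy 1.17.1). Intervals are 95% Wilson. On simulated counts for KO against WT over 6969 genes, the test recovered 22% of 2-fold and 85% of 4-fold changes, with 4 false calls. The simulated counts followed the fitted model and its own dispersion, with no outlying library. They therefore do not give the error rate in the real libraries.

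The rule for named genes took, from the genes that passed without overlap of libraries and reached 20 CPM, at most 8 in each direction by fold change. It added at most 4 that passed from each gene list, the 5 smallest p-values where fewer than 5 passed, and a set of domain, progenitor, cell cycle and Hox genes given in every comparison. Between gates they were the 10 largest log2 ratios each way. Alternatives covered scaling, the filter on low counts, DESeq2 1.42.0, the block, thinning, looser and stricter gates, transcript length and leaving out each library. Gates without the mesenchyme-marked cells and with at least 2 UMIs of Sox2 and of Pax6, and the crossed block, were chosen after seeing the data. Gene positions are from GENCODE for mm10. Same-numbered clones did not deviate together (correlations of deviations of 0.0146 for KO and WT, -2.24e-05 for DeltaSP and WT and -0.106 for KO and DeltaSP), so replicate numbers were not used to pair libraries. Results for some genes are not reported here.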

Additional observations from a re-analysis of the deposited data

Results flagged for a closer look

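In 12 genes the genotype effect differed between Olig2-negative and Olig2-positive progenitors by the interaction test with edgeR. The KO effect, as the log2 difference of members minus Olig2-positive cells, was -2.31 for Egr1, -2.06 for Rassf1, -2.61 for Chac1, -1.18 for Ier2, -1.68 for Trmt10c and -1.31 for Jun. It was -2.49 for Atf3, -1.20 for Slc3a2, -2.19 for Fos, -0.91 for Jund and 2.83 for Cyp26a1, a retinoic acid-degrading enzyme. Cyp26a1 had 92 and 2 UMIs in KO members, 3 and 17 in DeltaSP members and 27 and 0 in WT members, so KO replicate 1 held most of them. The DeltaSP effect was 1.31 for Mt1. Egr1 passed whichever library was left out. All the others were lost without WT replicate 2, the library with 10 members. They were lost as well without KO replicate 1 and without DeltaSP replicate 2, so the losses were not particular to 1 library. Whether the cells of single libraries or the genotype set these values was not tested.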

How the results depend on the processing

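The 260 genes of KO against WT became 154 with sums thinned to the smallest library, 151 without the 29 mesenchyme-marked members and 64 with at least 2 UMIs of Sox2 and of Pax6, and ranged from 68 (without WT replicate 1) to 400 (without WT replicate 2) when 1 library was left out. Without KO replicate 1 they were 138 and without KO replicate 2, 107. A genotype left with 1 library was assumed to vary like the others. All other alternatives gave 182 to 351. For DeltaSP against WT, 5 genes became 9 with DESeq2 size factors, 82 with no filter, 11 with DESeq2's Wald test, 8 with thinned sums, 2 with the looser cell filter, 2 with 0 UMIs of Olig1 required, 31 with the gate set at 3000 UMIs, 1 with the length trend removed and 3 with the stricter Sox2 and Pax6 gate. None passed with only the 2 genotypes fitted, without the 5% deepest members or without the mesenchyme-marked members (0 in each), and the range was 1 (without DeltaSP replicate 1) to 51 (without KO replicate 2) when 1 library was left out. For KO against DeltaSP, 1 gene became 56 with no filter, 7 with DESeq2's Wald test, 0 with 0 UMIs of Olig1 required, 23 with the gate set at 3000 UMIs, 0 without the 5% deepest members, 4 without the mesenchyme-marked members and 6 with the stricter gate, and 3 to 13 with 1 library left out.

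The 11 genes of the KO interaction became 27 with no filter, 0 with the gate set at 3000 UMIs, 3 without the mesenchyme-marked members and 0 with the stricter gate, and ranged from 1 to 147 with 1 library left out. The 1 gene of the DeltaSP interaction became 5, 0 and 2 with no filter, without the mesenchyme-marked members and with the stricter gate, and 0 to 98 with 1 library left out. Share differences changed to -1.65 points for KO minus WT and -1.72 for DeltaSP minus WT when taken over Sox2 cells with at most 2 Tubb3 UMIs. With at least 2 UMIs of Sox2 and of Pax6, the share was 0.939% and 0.905% in KO and 0.394% and 0.972% in DeltaSP. It was 0.311% and 0.124% in WT, below both KO and both DeltaSP libraries (exact p = 0.333 each, the smallest possible). With the looser cell filter KO exceeded WT by 0.906 points without overlap (exact p = 0.333), while DeltaSP and WT overlapped. In kept cells with 1 library left out, KO minus WT ranged from 0.0995 to 1.44 and DeltaSP minus WT from -0.215 to 1.12. KO minus DeltaSP then ranged from -0.332 to 0.960.

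Signs changed for mt-Nd4l in KO against WT (0.81 with the length trend removed), Jun (0.51 with the stricter gate), Epha5 (0.84 without WT replicate 1, and -3.36 to 0.84 over all libraries left out in turn) and Irx3 in KO against DeltaSP (-0.55 with the gate at 3000 UMIs). In the KO interaction they changed for Cyp26a1 (-2.63 with the gate at 3000 UMIs) and, with the stricter gate, for Atf3 (7.03), Jun (0.91), Jund (0.31), Ier2 (0.13) and Fos (0.022). Of the 51 named genes called in KO against WT, 9 passed under every alternative run. The cause of these changes was not tested.

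Replicate numbers did not pair the libraries; with the replicate block, KO against WT gave 203 genes, DeltaSP against WT 7 and KO against DeltaSP 3. With the KO numbers crossed the counts were 238, 15 and 7. The depth of WT replicate 1 and the 10 members of WT replicate 2 limit every comparison with WT.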
